A study of Mus musculus with 50 samples.

Results

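The polysomal RNA of mp53/Ras cells, young adult mouse colon (YAMC) cells that carry both mutant p53 and activated Ras, was compared with that of the parental YAMC cells across all genes of the array. The comparison took the 10 arrays titled mp53/Ras and the 10 titled YAMC of the 50 in the series, by their labels alone. Polysomal RNA is the RNA loaded on several ribosomes, recovered from sucrose gradients, so a level here joins the amount of an mRNA with how much of it was being translated, and these cannot be told apart. The mp53/Ras population was made by retroviral infection of low-passage YAMC cells with p53175H, a mutant of the tumour suppressor p53, and RasV12, an activated Ras. The 3 other populations of the series, used here only to place the differences, carry RasV12 with the Bleo vector (Ras), p53175H with the Neo vector (mp53), or both empty vectors (bleo/Neo), with 10 arrays each. YAMC cells are the parental cells. All 5 populations descend from a mouse that expresses a temperature-sensitive SV40 large T antigen, tsA58, under an interferon gamma-inducible H-2Kb promoter. All were moved to 39 °C without interferon gamma, where large T does not function, for 48 h and were then kept for 24 h in medium with 0% serum, and were harvested while still cycling. Each population is polyclonal but was derived once, so differences between mp53/Ras and YAMC cells cannot be told apart from differences between derivations or from infection itself. The labels number the replicates without saying whether they were separate cultures, so p-values here describe only how these samples vary, which may be technical.

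p53 is a transcription factor that, after DNA damage or oncogene activation, induces genes for cell-cycle arrest, DNA repair and cell death. The p53175H mutant folds wrongly and loses most binding to p53 target genes. Ras is a membrane-bound switch that, when locked in its active form, signals through the RAF, MEK and ERK kinases to AP-1 and ETS transcription factors, and ERK signalling also induces its own inhibitors, the dual-specificity phosphatases and Sprouty proteins. Both genes are often mutated together in colon cancer.

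The values were log2 intensities of 12883 genes, each given by its brightest probe set. The 50 arrays had almost the same distribution, with medians between 86.4 and 86.7 on the linear scale. The array labelled YAMC 2 stood apart: over all genes its root mean square distance was 0.48 from the mean of the mp53 arrays and 0.52 from the mean of the other 9 YAMC arrays. Of the 50 arrays, 46 lay nearest their own group, and the others were YAMC 2, mp53 8, mp53 10 and Ras 10. By this distance YAMC 2 and Ras 10 lay nearest the mp53 arrays, mp53 8 nearest the YAMC arrays and mp53 10 nearest the Ras arrays. The brightest Mycn probe set separated the infected populations from YAMC. It read 13.98 to 14.16 on the 10 mp53/Ras arrays, against 7.53 to 8.50 on 9 YAMC arrays and 13.82 on YAMC 2, and it read 7.16 on mp53 8 and at least 13.19 on the other Ras, mp53 and bleo/Neo arrays. Ltbp2, a TGF-beta binding protein of the matrix, did the reverse, with 4.42 to 4.81 on mp53/Ras arrays, against 7.0 to 9.33 on 9 YAMC arrays and 4.66 on YAMC 2. On both measures the array labelled YAMC 2 lay with the infected populations. The array labelled mp53 8 lay below the YAMC arrays for Mycn and read 6.72 for Ltbp2, under the 9 YAMC arrays and above the other arrays of the infected populations. No array was moved to another group. Every result below was also computed without YAMC 2, and comparisons with the Ras and mp53 populations also without all 4 of these arrays.

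**Figure D1:**
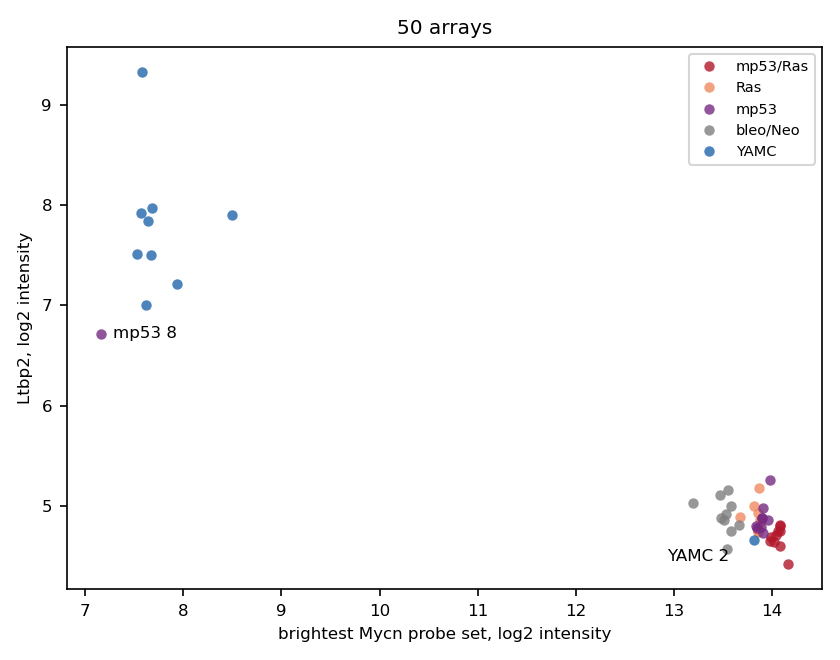
Log2 intensity of the brightest Mycn probe set (horizontal axis) against that of Ltbp2 (vertical axis) on all 50 arrays, 1 point per array, coloured by the labelled population. The mp53/Ras arrays lie at the lower right and 9 YAMC arrays at the upper left. YAMC 2 lies near the infected populations, and mp53 8, at 7.16 and 6.72, lies nearest the YAMC arrays.

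The cells carried some but not all marks of colon epithelium. Krt8, Krt18, Krt19, Epcam and Hnf4a exceeded 6.44, the table's median, on all mp53/Ras and all YAMC arrays, whereas Cdh1 (E-cadherin), Vil1 (villin), Cdx1 and Lgals4 were below it on all of these arrays. Hnf4a averaged only 7.09 in mp53/Ras and 7.01 in YAMC cells. Cdx2, Krt20 and Muc2 exceeded the median on 6, 1 and 7 mp53/Ras arrays and on 0, 0 and 2 YAMC arrays. The smooth muscle and fibroblast genes Acta2 and Tagln were bright in both, with mean log2 intensities of 13.52 and 12.90 in mp53/Ras cells, against 13.97 and 13.83 in YAMC cells. Pecam1, Cdh5 and Vwf of endothelium, and Ptprc and Adgre1 of leukocytes, were below the median on all 20 arrays, whereas Kdr of endothelium and Cd68, Csf1r and Cd3e of leukocytes were above it on all 20.

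At an adjusted p under 0.05 in limma, 7444 of the 12883 genes differed between mp53/Ras and YAMC cells, or 57.8%, with 3748 higher (29.1%) and 3696 lower (28.7%) in mp53/Ras cells. Most of these differences were small. The median absolute difference of all genes was 0.25 on the log2 scale, with a median standard error of 0.09, and 742 genes (5.76%) were called and differed at least 2-fold. Large falls outnumbered large rises, with 481 genes at least 2-fold lower (3.73%) and 261 at least 2-fold higher (2.03%) in mp53/Ras cells. For 2073 genes (16.1%) the mp53/Ras arrays and the YAMC arrays did not overlap, with all mp53/Ras arrays above in 7.13% and below in 8.97%. Without YAMC 2 this was 2448 genes (19%), and 7382 genes were called, of which 7023 were also called with all arrays and in the same direction. Of the 742 genes, 707 were called and at least 2-fold in the same direction both ways. In this bulk RNA a lower share of cells that express a gene and less of its RNA per cell cannot be told apart. Of the 742 genes, 296 had several bright probe sets, and in 231 of these every such probe set was called in the same direction.

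**Figure D2:**
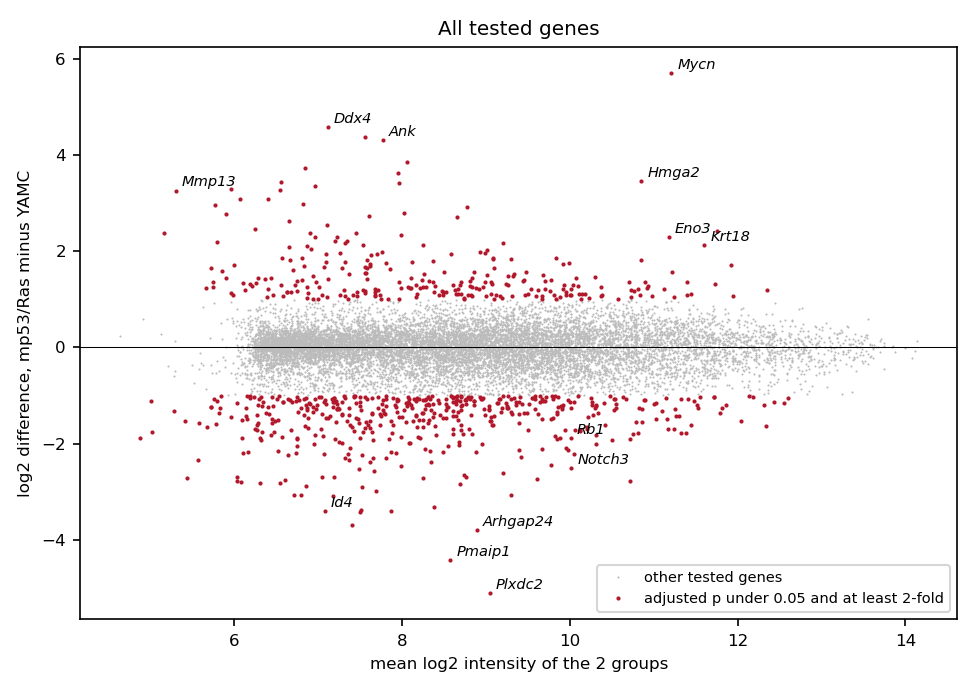
Log2 difference between mp53/Ras and YAMC cells (vertical axis, above 0 means higher in mp53/Ras) against the mean log2 intensity of the 2 groups (horizontal axis), 1 point per tested gene. Red points are the 742 genes called at an adjusted p under 0.05 and at least 2-fold apart, of which 481 lie below 0.

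Among named genes the largest rise was that of the Mycn probe set, at 5.70 ± 0.55 (SE) on the log2 scale (adjusted p = 1.48e-12), and 6.31 without YAMC 2. Mycn encodes the transcription factor N-Myc, but only this 1 of its 3 probe sets rose: the others read 6.70 to 7.80 and 6.69 to 7.57 on mp53/Ras arrays, against 7.55 to 8.79 and 6.66 to 7.36 on the 9 YAMC arrays other than YAMC 2. The bright probe set averaged 14.06 in mp53/Ras cells and 13.51 in the empty-vector bleo/Neo cells, and the groups did not overlap (13.98 to 14.16 and 13.19 to 13.66). This difference of 0.55 did not pass the test in limma with all arrays (adjusted p = 0.412) but did without the 4 arrays named above (adjusted p = 1.01e-09). Ddx4, a germ-cell RNA helicase, read between 8.81 and 9.99 (median 9.32) on mp53/Ras arrays and between 4.30 and 5.48 (median 4.81) on YAMC arrays. Its mean was also high in the Ras (9.43) and bleo/Neo (9.01) populations but 5.66 in the mp53 population. Ddx4 read 4.74 on Ras 10, against 9.22 to 10.33 on the other Ras arrays. On mp53 10 it read 10.05, against 4.37 to 5.67 on the other mp53 arrays. Ank, a membrane pyrophosphate transporter, rose by 4.31 ± 0.27 (adjusted p = 1.57e-18), with all mp53/Ras arrays between 9.09 and 10.30 and all YAMC arrays between 5.5 and 5.73. Cadm1, an immunoglobulin-family adhesion molecule, rose by 3.85 ± 0.32, and its 4 probe sets rose by 1.42 to 4.06.

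Fgf7, Cxcl15, Ackr3 and Pla2g7 were among the leading rises. Fgf7, keratinocyte growth factor, was between 9.52 and 10.06 on mp53/Ras arrays, against 5.84 to 7.0 on YAMC arrays, a 12.3-fold difference. Cxcl15, a chemokine known from mouse lung, rose by 3.73 ± 0.35 (adjusted p = 7.97e-13), and its mp53/Ras arrays were widely spread, from 7.66 to 10.29. Ackr3, a scavenging receptor for the chemokine Cxcl12, lay between 6.73 and 8.25 on mp53/Ras arrays and between 3.85 and 4.58 on YAMC arrays. Pla2g7, which degrades platelet-activating factor, was 10.3-fold higher, at 8.02 to 9.21 on mp53/Ras arrays, against 5.07 to 5.62 on YAMC arrays. Leading genes were picked for having no overlap with the YAMC arrays other than YAMC 2, so that separation is no finding. YAMC 2 also lay under every mp53/Ras array in these 4 genes.

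The chromatin protein gene Hmga2, an oncofetal gene repressed by let-7 microRNAs, was bright in both groups. It read 12.15 to 12.79 (median 12.66) on mp53/Ras arrays and 8.46 to 9.97 (median 8.97) on YAMC arrays, and all 3 of its probe sets rose, by 2.91 to 4.02. Tcim, a regulator of beta-catenin and NF-kappaB signalling, rose by 3.44 ± 0.29. Tnnt2, cardiac troponin T, rose by 3.41 ± 0.24, Aldh3a1, an aldehyde dehydrogenase, by 3.27 ± 0.25, and Slc14a1, a urea transporter, by 3.09 ± 0.20. The mp53/Ras arrays of these 4 genes all lay above YAMC 2, and above the other YAMC arrays by the rule that picked them.

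**Figure D3:**
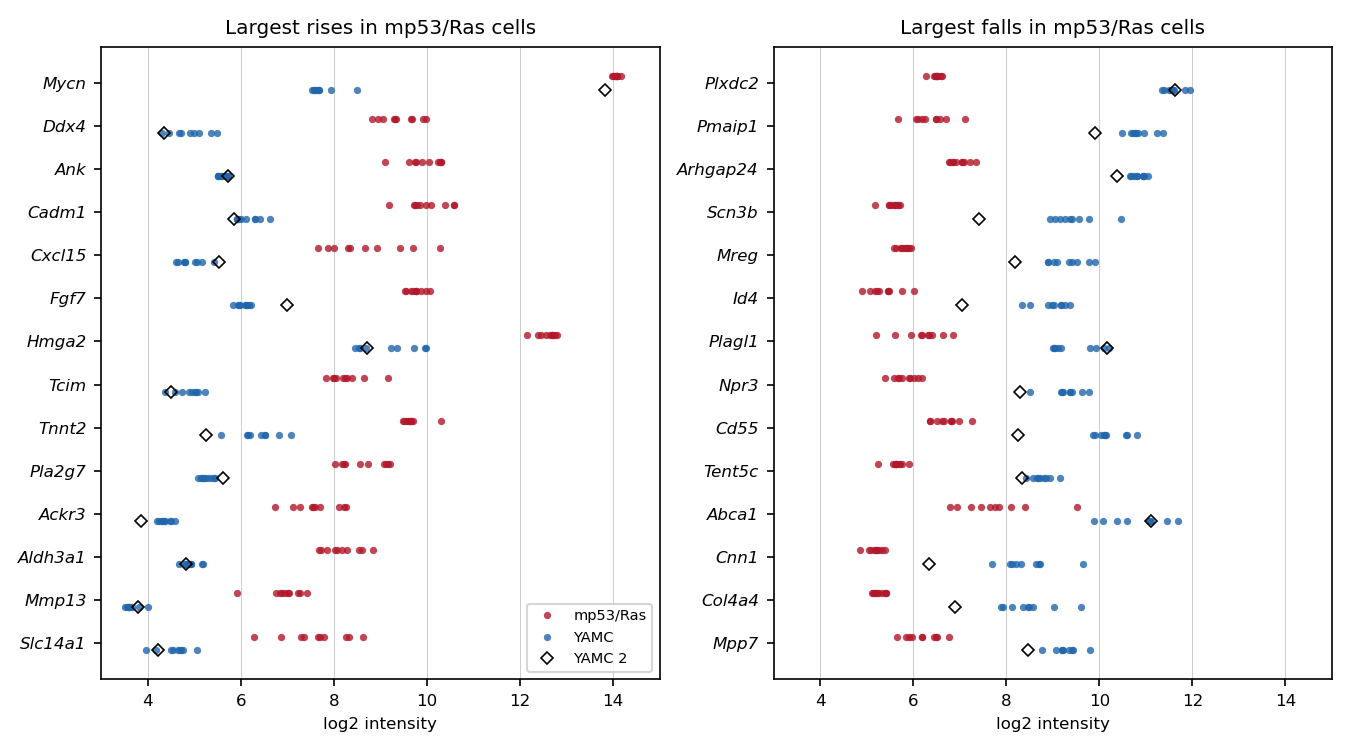
Log2 intensity (horizontal axis) of the 14 genes with the largest rises (left panel) and the 14 with the largest falls (right panel), among called genes with no predicted symbol whose mp53/Ras arrays do not overlap the YAMC arrays other than YAMC 2, 1 point per array, with mp53/Ras arrays in red above YAMC arrays in blue in each row. The array labelled YAMC 2 is an open diamond; it lies with the mp53/Ras arrays for Mycn and between the groups for genes such as Scn3b, Id4, Cd55 and Cnn1.

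The largest fall was that of Plxdc2, a transmembrane protein of the plexin-domain family, which read 6.28 to 6.61 (median 6.5) on mp53/Ras arrays and 11.35 to 11.95 (median 11.58) on YAMC arrays, 34.4-fold lower. Its 3 probe sets differed by -5.10 to -1.43. Pmaip1, which encodes the death-promoting BH3-only protein Noxa, was next. It lay between 5.68 and 7.11 on mp53/Ras arrays and between 9.91 and 11.36 on YAMC arrays, and fell by 4.41 ± 0.21 (adjusted p = 8.63e-23). Arhgap24, a GTPase-activating protein that switches off Rac, fell by 3.80 ± 0.13 on its brightest probe set, while its second bright probe set differed by -0.13.

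Id4, Plagl1, Cd55, Npr3 and Scn3b also fell. Id4, an inhibitor of helix-loop-helix factors, was between 4.90 and 6.01 on mp53/Ras arrays, against 7.05 to 9.37 on YAMC arrays, and YAMC 2 held the lowest of the YAMC values. Plagl1, an imprinted zinc finger gene, fell by 3.39 ± 0.39 by its brightest probe set and differed by 0.10 by its other one. Cd55, which shields cells from complement, lay between 6.36 and 7.26 on mp53/Ras arrays and between 8.25 and 10.81 on YAMC arrays, and its 3 probe sets differed by -3.32 to -3.0. Npr3, the clearance receptor for natriuretic peptides, fell by 3.37 ± 0.23. Scn3b, a sodium channel subunit, fell by 3.68 ± 0.26, and by 3.89 without YAMC 2. By its brightest probe set Plagl1 was low in the empty-vector cells too, at 4.56 to 5.67 on bleo/Neo arrays, against 5.21 to 6.86 on mp53/Ras arrays. Id4, Cd55, Npr3 and Scn3b, in contrast, were higher on every bleo/Neo array than on every mp53/Ras array.

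The other leading falls follow. Mreg, melanoregulin, fell by 3.42 ± 0.18 and Mpp7, a polarity scaffold of the tight junction, by 2.99 ± 0.15. Tent5c, a poly(A) polymerase, fell by 3.08 ± 0.22. Abca1, the cholesterol exporter, fell by 3.07 ± 0.31, and its mp53/Ras arrays were the most scattered of these, from 6.79 to 9.52, against 9.88 to 11.69 on YAMC arrays. Cnn1, the smooth muscle protein calponin, and Col4a4, a chain of basement membrane collagen, each fell by 3.07 and reached 4.86 to 5.39 and 5.12 to 5.41 on mp53/Ras arrays, against 6.33 to 9.65 and 6.90 to 9.61 on YAMC arrays. Levels this low lie under the table median. Of the 481 2-fold falls, 129 had a mp53/Ras mean under 6.44, and of the 261 2-fold rises, 79 had a YAMC mean under it.

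The differences from YAMC were then set beside those from the other populations. Against Ras cells, mp53/Ras cells differed in 2779 genes (21.6%) and in 3226 without the 4 arrays named above. Against mp53 cells they differed in 6071 genes (47.1%), and in 6147 without the 4 arrays. Against bleo/Neo cells they differed in 7032 (54.6%). These comparisons share the mp53/Ras arrays. At least 2-fold differences numbered 120 against Ras (23 higher, 97 lower), 477 against mp53 (210 higher, 267 lower) and 894 against bleo/Neo (362 higher, 532 lower).

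Individual genes fell into visibly different patterns over the 5 populations. Pmaip1 averaged 6.37 ± 0.40 in mp53/Ras, 8.77 ± 0.42 in Ras, 9.80 ± 0.74 in mp53, 11.20 ± 0.40 in bleo/Neo and 10.78 ± 0.40 in YAMC cells (SD, n = 10 each). It was lower in mp53/Ras than in Ras cells by limma (log2 difference -2.40, adjusted p = 1.11e-12) and than in mp53 cells (-3.43, adjusted p = 1.32e-18). Arhgap24, Mreg and Mpp7 were likewise lower than in both single-oncogene populations, with differences from Ras cells of -2.22, -2.24 and -2.14 and from mp53 cells of -3.25, -1.95 and -2.09. The array Ras 10 was the highest Ras array for Pmaip1 (9.84, others 8.3 to 8.83) and Arhgap24 (10.42, others 8.69 to 9.34). It was also highest for Mreg (8.65, others 7.65 to 8.19), so it enlarges these differences from Ras cells. For Mpp7 it lay among the others (8.22, others 8.04 to 8.6). Among mp53 arrays, mp53 8 was highest for Mreg (9.26) and Mpp7 (9.39), and mp53 10 came next (8.12 and 8.79). The other mp53 arrays read 7.25 to 7.79 and 7.87 to 8.33, so these arrays enlarge both differences from mp53 cells. For Pmaip1 and Arhgap24, mp53 8 was the highest mp53 array (11.28 and 10.96) and mp53 10 the lowest (8.2 and 9.52).

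Slc14a1 averaged 7.62 ± 0.70 in mp53/Ras, 5.78 ± 0.62 in Ras, 4.55 ± 0.31 in mp53, 4.4 ± 0.16 in bleo/Neo and 4.53 ± 0.32 in YAMC cells, and it was higher in mp53/Ras than in Ras cells (1.84, adjusted p = 6.26e-10). Pla2g7, Cxcl15 and Ank were also higher than in Ras cells, by 1.50, 1.58 and 1.10. The array Ras 10 was the lowest Ras array for Slc14a1 (4.75, others 5.37 to 6.81) and Pla2g7 (5.43, others 6.97 to 7.82). It was also lowest for Ank (5.92, others 8.7 to 9.53), so it enlarges these differences. For Cxcl15 it lay among the others (6.84, others 5.85 to 8.98). Plxdc2 and Hmga2, in contrast, did not pass the test against Ras cells (log2 differences -0.49 with adjusted p = 0.37, and 0.33 with adjusted p = 0.58). Without the 4 arrays these were -0.09 and -0.07, while the differences from mp53 cells were -4.62 and 4.07. Of the 28 leading genes, 5 passed the test against Ras cells only without those arrays. Mycn (0.19, adjusted p = 0.032), Cadm1 (0.51, adjusted p = 0.0143) and Fgf7 (0.35, adjusted p = 0.00611) were then higher, and Tcim (-0.55, adjusted p = 0.0199) and Mmp13 (-0.90, adjusted p = 1.04e-05) lower.

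**Figure D4:**
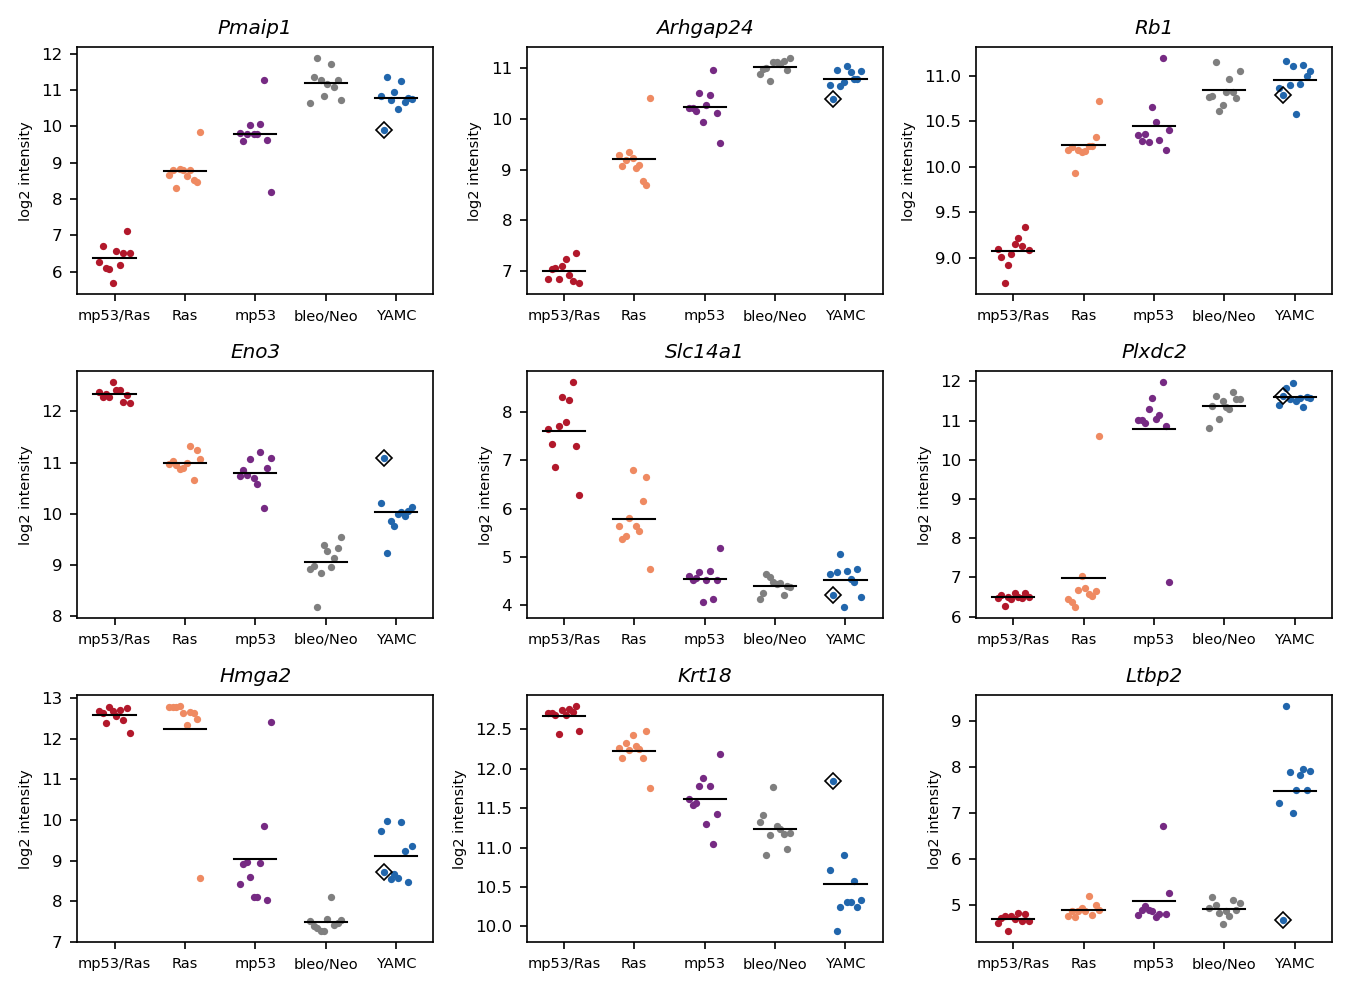
Log2 intensity (vertical axis) of 9 genes in the mp53/Ras, Ras, mp53, bleo/Neo and YAMC populations, 1 point per array, with the mean of 10 arrays as a line; YAMC 2 is ringed by an open diamond. Pmaip1, Arhgap24, Rb1, Eno3 and Slc14a1 differ between mp53/Ras and each single-oncogene population, whereas Plxdc2 and Hmga2 did not pass the test between mp53/Ras and Ras cells.

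Gene groups were described by lists of known function. Each is given by how many of its tested members were called in each direction, against 29.1% higher and 28.7% lower among all tested genes, whose median difference was 0.018.

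**Figure D5:**
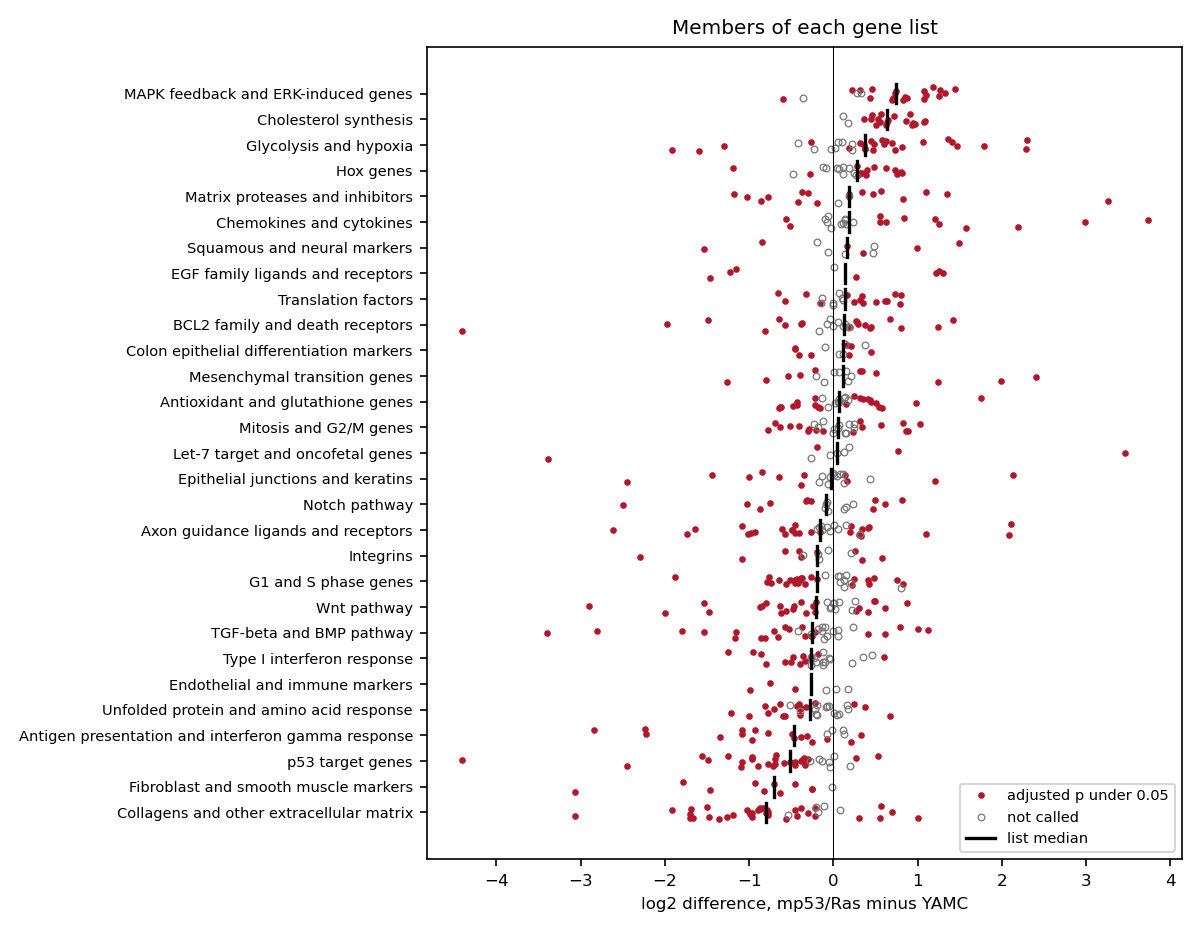
Log2 difference between mp53/Ras and YAMC cells (horizontal axis) for each tested member of 29 gene lists, 1 point per gene; filled red points were called at an adjusted p under 0.05, open points were not, and the black bar is the list median. MAPK feedback genes and cholesterol synthesis genes have the highest medians, 0.74 and 0.63, and extracellular matrix genes the lowest, -0.80.

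Most p53 target genes were lower in mp53/Ras cells. Of 35 tested, 26 fell and 2 rose, and the median was -0.51. Besides Pmaip1, the largest falls were those of Perp, a desmosomal protein that takes part in p53-dependent death, at -2.45 ± 0.30 (adjusted p = 1.02e-09), Rprm (reprimo, a G2 arrest gene) at -1.56 ± 0.19, and the death receptor Fas at -1.49 ± 0.12. Fas read 8.74 to 9.27 on mp53/Ras arrays, against 10.15 to 10.84 on YAMC arrays, with no overlap. Cdkn1a, which encodes the cyclin-dependent kinase inhibitor p21, fell by 0.34 ± 0.03 and read 13.32 to 13.48 in mp53/Ras cells, against 13.55 to 13.87 in YAMC cells. Mdm2, the ubiquitin ligase that degrades p53, fell by 0.69. Bbc3, which encodes the death protein Puma, differed by -0.04 (adjusted p = 0.76), and the 2 rises were those of Sfn (0.27) and Cd82 (0.53). Of the same 35 genes, 21 were lower and 1 higher than in Ras cells, where 12.5% of all genes were lower. Against mp53 cells 23 were lower and 3 higher, beside 23.8% of all genes lower. Perp averaged 8.55 in mp53/Ras and 8.97 in mp53 cells, and this difference did not pass the test in limma (-0.42, adjusted p = 0.246). It turned to 0.12 (adjusted p = 0.456) without the 4 arrays.

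Genes of cell death moved in both directions. Of 28 members of the BCL2 family, death receptors and caspases, 11 rose and 8 fell. The list shares 4 genes with the p53 list (Pmaip1, Fas, Bbc3 and Tnfrsf10b), and Pmaip1 and Fas are among the 8 falls. Dapk1, a death-associated kinase, read 7.36 to 8.05 on mp53/Ras arrays, against 8.82 to 10.53 on YAMC arrays, and fell by 1.97 ± 0.13. The survival gene Mcl1 fell by 0.64, while its relative Bcl2 rose by 0.80. Tnfrsf21, death receptor 6, rose by 1.42 ± 0.14 on its brightest probe set and by 0.26 on another.

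MAPK feedback and ERK-induced genes were mostly higher. Of 23 tested, 19 rose, 1 fell and 3 were not called, with a median of 0.74. Myc, the growth-promoting transcription factor, read 9.34 to 10.04 (median 9.49) on mp53/Ras arrays and 7.47 to 8.66 (median 7.99) on YAMC arrays, a rise of 1.44 ± 0.17 (adjusted p = 2.38e-10). The phosphatase genes Dusp6 and Dusp4, which switch off ERK, rose by 1.27 ± 0.27 and 1.25 ± 0.22, and the groups did not overlap in either. Emp1, a membrane protein of epithelia, rose by 1.32 ± 0.15. Spry2 rose by 1.18 and Spry4 by 0.71, whereas their relative Spry1 fell by 0.60 ± 0.14. Against mp53 cells 18 of these 23 genes were higher and none lower, beside 23.3% of all genes higher. Against Ras cells 3 were higher and 1 lower, beside 9.12% and 12.5% of all genes. Without the 4 arrays 2 were higher and 4 lower, beside 11.1% and 14% of all genes. Spry1 (-0.32, adjusted p = 0.0262 by limma) was then one of the lower ones.

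Of 8 tested EGF family genes, 4 rose and 3 fell. Against bleo/Neo cells 2 of the 8 were higher and 3 lower, beside 26.7% and 27.9% of all genes. Among the ligands, which are shed from the cell surface and activate EGF receptors, Btc (betacellulin), Hbegf and Ereg (epiregulin) rose by 1.30 ± 0.15, 1.25 ± 0.16 and 1.22 ± 0.22. Btc, however, read 6.98 to 8.16 on bleo/Neo arrays and 6.99 to 7.75 on mp53/Ras arrays. Hbegf read 8.07 to 8.70 on bleo/Neo arrays, against 9.14 to 10.02 on mp53/Ras arrays. Nrg1, the ligand of the neuregulin receptors, fell by 1.46 ± 0.10 and lay between 6.21 and 6.6 on mp53/Ras arrays, against 7.42 to 8.09 on YAMC arrays. The receptor Egfr was between 8.82 and 9.51 on mp53/Ras arrays and between 10.28 and 10.91 on YAMC arrays, and fell by 1.23 ± 0.11, although its 5 probe sets ranged from -1.23 to 0.13. Erbb3 fell by 1.16 and Erbb2 differed by 0.01, without a call.

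Cell-cycle genes did not move as a block. Of 33 genes of G1 and S phase, 17 fell and 7 rose, and the median was -0.19. Rb1, the retinoblastoma protein that holds cells in G1, fell by 1.88 ± 0.09 (adjusted p = 2.67e-22) and read 8.72 to 9.34 on mp53/Ras arrays and 10.58 to 11.16 on YAMC arrays. It was lower than in Ras cells and than in mp53 cells, with log2 differences of -1.16 and -1.38. The replication helicase genes Mcm2, Mcm3, Mcm4, Mcm5, Mcm6 and Mcm7 were lower, with differences of -0.76 to -0.34, and Rrm1, of ribonucleotide reductase, fell by 0.79 ± 0.11. The cyclins Ccnd1 and Ccne1, which drive cells out of G1, rose by 0.83 ± 0.10 and 0.76 ± 0.11. Cdkn2a, the Ink4a/Arf locus, ranged from 10.47 to 12.31 on mp53/Ras arrays and from 8.50 to 12.56 on YAMC arrays and was not called (0.80, adjusted p = 0.141). Of 29 mitosis genes, 8 rose and 9 fell. Cenpa, Aurka, Birc5 and Cdc25b, of the centromere, the spindle and the entry into mitosis, rose by 1.03, 0.89, 0.86 and 0.83, whereas Cenpe, Mki67 and Top2a fell by 0.77, 0.69 and 0.63.

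Matrix proteases and their inhibitors moved in both directions, 9 of 19 up and 8 down. Mmp13, collagenase 3, rose most, by 3.26 ± 0.37 (adjusted p = 1.48e-10), and read 5.92 to 7.43 (median 6.99) on mp53/Ras arrays and 3.52 to 4.01 (median 3.61) on YAMC arrays. Mmp10, stromelysin 2, lay between 7.47 and 7.89 on mp53/Ras arrays and between 6.03 and 6.80 on YAMC arrays, a rise of 1.35 ± 0.15. Both lie in the cluster of matrix metalloproteinase genes on mouse chromosome 9. Mmp10 was lower in mp53/Ras than in Ras cells (-0.95, adjusted p = 4.4e-06). Mmp13 was too once the 4 arrays were left out (-0.90, adjusted p = 1.04e-05), but not with them (-0.51, adjusted p = 0.351). Plaur, the urokinase receptor, rose by 1.10 ± 0.15 and Mmp3 by 0.83. Adamts1 and Adamts5, which cleave proteoglycans, fell by 1.18 ± 0.15 and 1.02 ± 0.20, and Mmp2 fell by 0.86.

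The promoters of Mmp13 and Mmp10 are shown because both genes rose and both hold the letters of the AP-1 site, at which Fos and Jun proteins bind. The window is the RefSeq sequence (GRCm38.p6) from 250 bases before to 50 bases after the gene's start, and capitals mark the motif TGANTCA, which was searched on both strands.
Mmp13, chr9:7272264-7272563, plus strand: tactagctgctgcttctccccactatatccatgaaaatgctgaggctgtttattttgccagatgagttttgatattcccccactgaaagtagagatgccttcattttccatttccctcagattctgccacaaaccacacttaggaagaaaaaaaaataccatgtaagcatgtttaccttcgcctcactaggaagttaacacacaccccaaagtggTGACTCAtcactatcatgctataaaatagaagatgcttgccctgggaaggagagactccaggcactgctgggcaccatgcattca
Mmp10, chr9:7502092-7502391, plus strand: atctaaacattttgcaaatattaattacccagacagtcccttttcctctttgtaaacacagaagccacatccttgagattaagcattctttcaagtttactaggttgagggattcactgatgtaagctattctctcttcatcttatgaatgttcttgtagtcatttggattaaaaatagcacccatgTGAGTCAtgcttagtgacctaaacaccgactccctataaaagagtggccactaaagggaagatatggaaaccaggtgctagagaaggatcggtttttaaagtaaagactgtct
The match starts at position -35 in Mmp13 and -63 in Mmp10 relative to the start of the gene. RefSeq gave a promoter for 13 tested members of the protease list, of which 5 held the motif (38.5%), and for 13 of the MAPK list, of which 2 did (15.4%). Of 27025 genes with a promoter, 8.97% held it. A match describes these letters and not binding.

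Genes of the extracellular matrix were mostly lower, and their list had the lowest median, -0.80. Of 41 tested, 31 fell and 5 rose, and 12 fell at least 2-fold. All 6 type IV collagen chains, the network-forming collagens of the basement membrane, fell: Col4a4 by 3.07, Col4a5 by 1.70, Col4a3 by 1.66, Col4a2 by 1.48, Col4a1 by 1.19 and Col4a6 by 0.99, with no overlap between the groups in any of them. Nid2 and Nid1, the nidogens that link this collagen to laminin, fell by 1.70 ± 0.19 and 1.50 ± 0.22. Col8a1 read 8.30 to 9.34 on mp53/Ras arrays, against 10.06 to 11.39 on 9 YAMC arrays and 8.95 on YAMC 2. The fibrillar Col1a1 fell by 0.80. Those that rose included Col7a1, of the anchoring fibrils under epithelia (1.01 ± 0.06), Col18a1 (0.69) and the laminin chains Lama3 (0.30) and Lamb3 (0.55). The cells were grown on dishes coated with collagen IV. Against mp53 cells 27 of the 41 genes were lower and 5 higher, beside 23.8% of all genes lower, and against Ras cells 7 were lower and 4 higher, beside 12.5% and 9.12% of all genes. Without the 4 arrays 9 were lower and 6 higher than in Ras cells, beside 14% and 11.1%. Against bleo/Neo cells 16 were lower and 8 higher, beside 27.9% and 26.7%. Col8a1 read 5.99 to 6.71 on bleo/Neo arrays, under every mp53/Ras array. Nid2 read 5.40 to 5.86 on bleo/Neo arrays and 5.20 to 5.63 on mp53/Ras arrays. Col4a4 and Col4a5, in contrast, were higher on every bleo/Neo array than on every mp53/Ras array.

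Of 11 tested fibroblast and smooth muscle markers, 10 were lower and none higher, with a median of -0.70. Myl9, a myosin light chain, was between 10.05 and 10.83 on mp53/Ras arrays, against 11.47 to 12.87 on 9 YAMC arrays and 10.66 on YAMC 2. Actg2 fell by 1.47 ± 0.32 and Tagln by 0.93 ± 0.13, with Tagln still at 12.69 to 13.12 on mp53/Ras arrays. Against bleo/Neo cells, however, 5 of these 11 markers were higher and 2 lower, beside 26.7% and 27.9% of all genes. Myl9 averaged 10.44 in mp53/Ras and 6.74 in bleo/Neo cells. A further measure took 10 marker genes of fibroblasts and smooth muscle. Of these, 5 (Acta2, Actg2, Tagln, Myl9 and Des) were above the table median on all mp53/Ras and all YAMC arrays. Cnn1 was above it on 9 YAMC arrays and on no mp53/Ras array. The log2 of the mean linear intensity of the 10 genes, to which Acta2 and Tagln add most, was 10.87 to 11.24 on mp53/Ras arrays. On YAMC arrays it was 11.51 to 12.04. Its part in the fall of matrix genes was not tested. Thy1 and Fap were below the table median on all 20 arrays.

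Keratins and junction genes moved in both directions. Krt18 read 12.44 to 12.79 (median 12.70) on mp53/Ras arrays and 9.94 to 11.84 (median 10.33) on YAMC arrays, where YAMC 2 held the highest value, a rise of 2.13 ± 0.14 (adjusted p = 2.59e-18). Its partner Krt8 rose by 1.20 ± 0.10, whereas Krt7, also of simple epithelia, fell by 0.65 and Krt19 differed by 0.44 without a call. Pkp2, plakophilin 2 of desmosomes, fell by 1.44 ± 0.17, Tjp3 by 1.00 and Krt14 by 0.85. Of 22 tested members, 4 rose, 7 fell and 11 were not called. Among 18 genes associated with the mesenchymal state 6 rose and 5 fell. S100a4, a calcium-binding protein of motile cells, was between 12.66 and 13.14 on mp53/Ras arrays and between 9.12 and 11.50 on YAMC arrays, a rise of 2.41 ± 0.25. The transcription factors Twist2 and Snai2, which repress epithelial genes, rose by 1.99 ± 0.16 and 1.24 ± 0.12, whereas fibronectin (Fn1) fell by 1.26 ± 0.17, Ncam1 by 0.80 and Zeb1 by 0.40. Vimentin (Vim) differed by 0.01.

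Most genes of antigen presentation and the interferon gamma response were lower than in YAMC cells. Of 21 antigen presentation and interferon gamma genes, 15 fell and 2 rose, with a median of -0.47. Against bleo/Neo cells, however, 7 were higher and 9 lower, beside 26.7% and 27.9% of all genes. Against mp53 cells 4 were higher and 11 lower, beside 23.3% and 23.8%. Against Ras cells none was higher and 8 were lower, beside 9.12% and 12.5%. These counts of members were the same without the 4 arrays. H2-Aa and H2-Eb1, chains of class II major histocompatibility molecules, fell by 2.24 ± 0.27 and 2.22 ± 0.21, and Nlrc5, the activator of class I genes, by 1.34 ± 0.11. The class I gene H2-K1 fell by 0.49 and the peptide transporter Tap1 by 1.09. H2-Aa had 3 probe sets, of which the least changed differed by -0.19. It was higher in mp53/Ras than in bleo/Neo cells (1.07, adjusted p = 0.000639). Icam1, an adhesion molecule for leukocytes, lay between 7.05 and 7.66 on mp53/Ras arrays, against 9.62 to 11.15 on 9 YAMC arrays and 7.27 on YAMC 2. The large T transgene is itself driven by a class I promoter, and no probe set for it was analysed here.

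The count of type I interferon genes changed with YAMC 2. Of 27, 12 fell and 1 rose with all arrays, and 17 fell and none rose without YAMC 2, when the median was -0.38. With YAMC 2 it was -0.26. Ifit3, an antiviral effector, read 10.32 to 11.36 on mp53/Ras arrays and 11.62 to 12.62 on YAMC arrays, and fell by 1.25 ± 0.18 (adjusted p = 4.86e-08). Usp18, which removes ISG15 from proteins, was between 11.45 and 12.13 on mp53/Ras arrays, against 12.82 to 13.07 on 9 YAMC arrays and 11.69 on YAMC 2. Ifih1, the double-stranded RNA sensor MDA5, and Ifit2 fell by 0.86 ± 0.14 and 0.80 ± 0.10. The rise of Ifi204 (0.60) was not called without YAMC 2 (0.48, adjusted p = 0.057). Against mp53 cells 6 of the 27 were lower and 3 higher, beside 23.8% and 23.3% of all genes. Without the 4 arrays 5 were lower and 13 higher, beside 24.3% and 23.4%. Against Ras cells 10 were lower, beside 12.5% of all genes, or 16 without the 4 arrays, beside 14%, and none was higher.

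The promoter of Ifit3 is shown because it fell most in that list and holds 2 copies of the letters of the interferon-stimulated response element, at which STAT and IRF proteins bind. Capitals mark its core, which was taken as GAAA, any 2 bases and GAAA again, searched on both strands and here read on the minus strand, in the same RefSeq window.
Ifit3, chr19:34583279-34583578, plus strand: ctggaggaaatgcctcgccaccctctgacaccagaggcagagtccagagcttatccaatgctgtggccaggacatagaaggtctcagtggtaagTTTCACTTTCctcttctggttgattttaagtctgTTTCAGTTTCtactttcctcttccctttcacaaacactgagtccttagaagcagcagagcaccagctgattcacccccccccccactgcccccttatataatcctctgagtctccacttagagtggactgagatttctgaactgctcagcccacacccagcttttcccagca
The copies start at positions -156 and -122 from the start of the gene. RefSeq gave a promoter for 19 tested members of the type I list, of which 10 held the motif (52.6%), and for 16 of the antigen presentation list, of which 4 did (25%), beside 3.99% of all 27025. Of these 10 type I genes, Ifit3, Ifih1 and Ifitm3 fell and the other 7 were not called. Of the 4 antigen presentation genes 3 fell and 1 rose. Among all tested genes 28.7% fell and 29.1% rose, and of the whole type I list 12 of 27 fell.

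Chemokines and cytokines rose more often than they fell, 10 against 2 of 22 tested. After Cxcl15, the largest rise was that of Ccl9, a macrophage-attracting chemokine, which was 8.05 to 8.58 on mp53/Ras arrays and 5.10 to 5.56 on YAMC arrays, at 2.98 ± 0.14 (adjusted p = 4.08e-23). The inflammatory cytokine Il6 rose by 2.19 ± 0.17 and lay between 6.33 and 7.83 on mp53/Ras arrays, against 4.30 to 5.10 on YAMC arrays. Ccl2, the monocyte chemokine, rose by 1.57 ± 0.18, and Cxcl10, which is induced by interferons, by 1.20. Il11 and Il18 fell by 0.56 and 0.51. Of the 22, 7 were higher than in Ras cells and 1 lower, beside 9.12% and 12.5% of all genes. Without the 4 arrays 7 were higher and 3 lower, beside 11.1% and 14%.

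Glycolysis and hypoxia genes were mostly higher, 21 of 33, with 4 lower and a median of 0.38. Eno3, the muscle form of enolase, read 12.16 to 12.57 (median 12.34) on mp53/Ras arrays and 9.23 to 11.10 (median 10.01) on YAMC arrays, the highest of which was YAMC 2, a rise of 2.30 ± 0.14 (adjusted p = 3.22e-19). The lactate exporter Slc16a3 and the oxygen sensor Egln3 rose by 2.29 ± 0.18 and 1.79 ± 0.15, and both were also higher than in Ras cells (1.24 and 0.48, or 1.14 and 0.32 without the 4 arrays). Of the 33 genes, however, only 4 were higher than in Ras cells and 3 lower, beside 9.12% and 12.5% of all genes. Without the 4 arrays 7 were higher and 3 lower, beside 11.1% and 14%. The hypoxia-induced genes Bnip3 and Pdk1 rose by 1.47 and 1.36, and the glucose transporter Slc2a1 by 0.82. Another glucose transporter, Slc2a3, fell by 1.6 ± 0.21, and the lactate dehydrogenase Ldhb fell by 1.92 ± 0.17, to 9.29 to 9.79 in mp53/Ras cells, against 10.52 to 12.22 in YAMC cells, whereas Ldha rose by 0.36. Eno2, the neuronal enolase, fell by 1.30.

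Cholesterol synthesis genes moved in 1 direction. Of 20 tested, 18 rose and none fell, with a median of 0.63, and 19 rose without YAMC 2. Nsdhl, a demethylating enzyme of the late pathway, read 10.73 to 11.16 on mp53/Ras arrays and 8.88 to 10.25 on YAMC arrays, a rise of 1.09 ± 0.14. Stard4, a sterol carrier, rose by 1.07 ± 0.18 and Sc5d by 0.97 ± 0.13. Squalene epoxidase (Sqle) was between 11.05 and 11.44 on mp53/Ras arrays, against 8.90 to 10.60 on 9 YAMC arrays and 11.82 on YAMC 2. None of the 20 was called against Ras cells in either direction, with or without the 4 arrays, while 16 were higher than in mp53 cells, beside 23.3% of all genes.

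Stress and protein synthesis genes changed by smaller amounts. Of 32 genes of the unfolded protein and amino acid responses 15 fell and 3 rose. Ddit3 (CHOP) and Atf3, stress-induced transcription factors, fell by 1.22 ± 0.29 and 1.00 ± 0.20, with overlap between the groups, whereas Xbp1 rose by 0.67 ± 0.13. Of 22 translation factors 11 rose and 4 fell. Eif4a1 and Eif4e, of the cap-binding complex, rose by 0.80 ± 0.19 and 0.79 ± 0.14, and Eif3c and Eif3a, of the scaffold that binds the small ribosomal subunit, fell by 0.66 ± 0.12 and 0.57 ± 0.12. Of 31 antioxidant genes 12 rose and 10 fell. Mgst3, a microsomal glutathione transferase, rose by 1.75 ± 0.17 and Srxn1, sulfiredoxin, by 0.98 ± 0.09. The falls of Hmox1 (-0.65) and Slc7a11 (-0.63) were not called without YAMC 2 (-0.57, adjusted p = 0.0519, and -0.52, adjusted p = 0.051).

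Developmental signalling genes moved in both directions. In the TGF-beta and BMP list 17 of 34 fell and 5 rose. Beside Id4 and Ltbp2, Id2, another helix-loop-helix inhibitor, fell by 1.80 ± 0.25, with YAMC 2 at 6.99, under every mp53/Ras array, and the other YAMC arrays at 9.18 to 10.58. Bmp6, a ligand, fell by 1.53 ± 0.12, while Tgfb3 rose by 1.12 ± 0.13 and the activin antagonist Fst by 1.01 ± 0.15. In the Wnt list 17 of 33 fell and 7 rose. The secreted modulators Sfrp2, Rspo3 and Dkk2 fell by 2.90 ± 0.37, 2.00 ± 0.26 and 1.53 ± 0.28, and the ligand Wnt9a by 1.48 ± 0.10. Znrf3, a negative regulator of Wnt receptors, rose by 0.87. In the Notch list 7 of 18 fell and 4 rose. The receptor Notch3 read 8.36 to 9.02 on mp53/Ras arrays and 10.72 to 11.85 on YAMC arrays, and fell by 2.50 ± 0.14 (adjusted p = 5.51e-20), seen in both of its probe sets. Its ligand Jag2 and the receptor Notch1 fell by 1.02 and 0.87, while Nrarp and Lfng, a feedback inhibitor and a glycosyltransferase that modifies Notch, rose by 0.81 and 0.61.

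Integrins and guidance molecules also moved in both directions. Among 14 integrins 6 fell and 3 rose. Itga1, a collagen receptor subunit, fell by 2.29 ± 0.27, to 6.13 to 6.76 in mp53/Ras cells, against 8.29 to 9.36 in YAMC cells. Itgb4, the laminin receptor subunit of hemidesmosomes, fell by 1.09 ± 0.31, and the YAMC arrays ranged from 7.09, on YAMC 2, to 10.61. Of 36 axon guidance genes 16 fell and 10 rose. Sema3d and Slit2, secreted guidance cues, fell by 2.61 ± 0.23 and 1.74 ± 0.14, whereas the membrane-anchored Sema7a rose by 2.11 ± 0.12 and the receptor Epha4 by 2.08 ± 0.18. Sema7a was also higher than in Ras cells (1.43, adjusted p = 1.46e-13) and than in mp53 cells (1.96, adjusted p = 6.37e-19). Of 24 Hox genes 12 rose, by at most 0.82 (Hoxb2), and 2 fell. Hoxc13 fell by 1.19 ± 0.10 and Hoxc6 by 0.28.

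Among 9 tested let-7 targets and oncofetal genes, Hmga2 and the RNA-binding protein gene Igf2bp3 (0.77) rose and Plagl1 and Arid3b (-0.20) fell. Markers of differentiated colon epithelium moved little, with 4 of 13 higher and 4 lower and the largest change that of Klf5 (-0.46), which was not called without YAMC 2 (-0.40, adjusted p = 0.0872). Of 6 endothelial and immune markers 3 fell, Cd68 by 0.99, Kdr by 0.75 and Tek by 0.45. Tek was dim, above the table median on 1 YAMC array and on no mp53/Ras array. Of 11 squamous and neural markers 4 rose and 2 fell. Krt15, a keratin of basal epithelium, rose by 1.49 ± 0.21, Gpm6a by 0.99 ± 0.21 and Trp63, a p53 relative, by 0.35, while Stmn4 fell by 1.54 ± 0.11.

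The Y-linked genes Uty and Kdm5d fell by 1.41 ± 0.19 and 0.97 ± 0.19 and Eif2s3y by 0.44 ± 0.17, while Xist, the RNA of the inactive X chromosome, rose by 1.30 ± 0.25. Xist ranged from 8.31 to 9.91 on mp53/Ras arrays and from 7.31 to 8.76 on YAMC arrays, so the groups overlapped. Uty averaged 5.57 in mp53/Ras, 6.37 in Ras, 7.32 in mp53, 3.58 in bleo/Neo and 6.98 in YAMC cells. Levels of the introduced oncogenes themselves were not analysed here. Of their relatives, Trp73 and Rras rose by 0.59 ± 0.06 and 0.51 ± 0.08, Mdm4, which restrains p53, fell by 0.41 and Mras by 0.31, and Nras (0.04) and Rras2 (0.10) were not called. Of 4 reference genes, Actb, Vim and Tbp differed by 0.04, 0.01 and 0.15 without a call, and Hprt fell by 0.25.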

How the data were processed

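Polysomal RNA of 5 cell populations was hybridised to mouse expression arrays, 10 per population. The authors deposited 1 linear intensity per probe set and array, made with RMA per the submitters' processing notes; its version and further settings are not given in the sources used here. Intensities were taken to log2. Of 45101 probe sets, 64 were blank and 34945 had 1 gene symbol; the brightest stood for each of 18193 genes, and 12883 genes above the table median (log2 6.44) on at least 10 of the 50 arrays were tested. Mutant p53 and Ras transgenes were not analysed here.

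limma 3.58.1 in R 4.3.3 was fitted to all 50 arrays (5 groups, eBayes with trend) with Benjamini-Hochberg adjustment over the 12883 genes; called means an adjusted p under 0.05, and 2-fold a log2 difference of at least 1 in size. The fit was tested on simulated data. Array number limits the precision. Named genes were the 14 largest rises and 14 largest falls that were called with and without YAMC 2 and did not overlap without it, up to 4 called members of each list with the largest differences, up to 2 that went the other way, and 3 lists in full. Other list members were named for their role after their values were seen. The comparison, members and lists were chosen with earlier results of these data known. Alternatives covered filters, probe sets, offset, centring, weights, moderation, a replicate block and arrays left out.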

Additional observations from a re-analysis of the deposited data

Results flagged for a closer look

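Among the 170 named genes and the 2 groups, 340 sets of 10 arrays were checked for a highest or lowest array far from the other 9 by Dixon's criterion, which chance meets in about 1 set in 20, and 40 sets met it. The array labelled YAMC 2 accounted for 17 of them, and mp53/Ras 4 for 5.

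YAMC 2 was the lowest YAMC array, as log2 intensity, for Ackr3 (3.85, others 4.20 to 4.58), Scn3b (7.41, others 8.95 to 10.46) and Id4 (7.05, others 8.33 to 9.37). It was also lowest for Cd55 (8.25, others 9.86 to 10.81), Perp (9.21, others 10.83 to 11.89) and Usp18 (11.69, others 12.82 to 13.07). The same array was under the other YAMC arrays for Icam1 (7.27, others 9.62 to 11.15), Ltbp2 (4.66, others 7.0 to 9.33) and Id2 (6.99, others 9.18 to 10.58). So it was for Itgb4 (7.09, others 8.87 to 10.61). YAMC 2 was the highest YAMC array for Mycn (13.82, others 7.53 to 8.50), Fgf7 (7.0, others 5.84 to 6.21) and Krt18 (11.84, others 9.94 to 10.91). It was above the other YAMC arrays for Pkp2 (11.86, others 10.50 to 11.19), Eno3 (11.10, others 9.23 to 10.21) and Atf3 (11.74, others 9.58 to 10.61). The same held for Muc3 (6.44, others 5.93 to 6.2).

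In mp53/Ras cells 1 array lay under the other 9 for Mmp13 (5.92, others 6.76 to 7.43), Plxdc2 (6.28, others 6.45 to 6.61) and Scn3b (5.18, others 5.49 to 5.72). Likewise 1 low array was seen for Tent5c (5.24, others 5.57 to 5.90), Cd82 (9.84, others 10.25 to 10.51) and Dusp4 (10.80, others 10.96 to 11.10). A low array was present for Egfr (8.82, others 9.19 to 9.51), Herpud1 (9.50, others 9.97 to 10.49) and Tgfb3 (8.71, others 9.13 to 9.37). Lowest values stood apart for Gata4 (6.95, others 7.36 to 7.65) and Xist (8.31, others 9.06 to 9.91). In mp53/Ras cells 1 array lay above the other 9 for Tnnt2 (10.30, others 9.49 to 9.71), Hbegf (10.02, others 9.14 to 9.58) and Slc16a3 (9.69, others 7.69 to 8.68). A single high array was seen for Hmox1 (12.35, others 10.19 to 10.63), Slc7a11 (7.61, others 6.06 to 6.75) and Bmp6 (7.83, others 7.09 to 7.41). Highest values stood apart for Hoxd9 (9.80, others 9.14 to 9.48) and Cd68 (8.96, others 8.19 to 8.55). Among YAMC arrays other than YAMC 2, 1 stood apart for Sfn (6.83, others 7.27 to 7.69), Nsdhl (8.88, others 9.69 to 10.25) and Sema3d (11.14, others 10.24 to 10.64). Another such array was seen for Gata4 (7.32, others 7.88 to 8.02). The causes were not tested.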

How the results depend on the processing

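The count of genes called between mp53/Ras and YAMC cells ran from 7021 with the stricter filter to 9870 with no filter, and 2-fold calls from 639 with an offset of 16 to 798 with no filter. With the replicate block 7893 genes were called. Against Ras, mp53 and bleo/Neo cells the block gave 3368, 6658 and 7502 calls, and all 4 counts were above those of the main fit. Same-numbered mp53/Ras and YAMC deviations correlated between -0.18 and 0.31. Whether same-numbered arrays of the 5 populations were handled together was not tested. Against Ras cells, the 2779 calls (1175 higher, 1604 lower) became 4576 with no filter (2106 and 2470) and 4973 with array weights (2469 and 2504); the cause was not tested. The protease list's median, 0.19, was -0.08 with the stricter filter, which tests fewer genes. Without YAMC 2, 164 of 170 named genes kept their side of the threshold; Ifi204, Hmox1, Slc7a11 and Klf5 are given above, and Sdf2l1 (0.32, adjusted p = 0.0815) and Eif2s3y (-0.34, adjusted p = 0.0703) were the others not called by limma. With the mean of probe sets Hoxc6 and Klf5 were not called and Nras was (0.21, adjusted p = 0.00982). The stricter filter tested 152 of the 170. Leaving out the 4 arrays nearer another group was chosen after seeing the data, and gave 7668 calls against YAMC. Signal limits dim genes: 5310 were not tested.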
